A study of Mus musculus with 9 samples.

Results

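The genes described here encode the Fc receptors of mouse phagocytes and proteins that carry antibody across cells. Fcgr1, Fcgr2b, Fcgr3 and Fcgr4 are the receptors for IgG, Fcer1g is the signalling chain of the activating receptors, and Fcgrt, Pigr and Jchain serve the transport of IgG, IgA and IgM. The 8 genes were chosen by name for their function with earlier results of these data known, so the shares of all clusters given beside their counts are a description. Each was measured by exactly 1 transcript cluster (a set of probes read together), which the platform annotation gives to that gene alone. They are 8 of 22180 genes named in this way and 8 of 33793 transcript clusters on the array.

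Expression was measured on 9 arrays of mouse Peyer's patch phagocytes, 3 for each of 3 sorted populations. LysoMac are macrophages that express lysozyme, and C5aR+ and C5aR- LysoDC are lysozyme-expressing dendritic cells with or without the receptor for the complement fragment C5a. All 3 populations came from patches digested with collagenase and were enriched for living CD11c+ cells on beads. The sort antibodies bound MHC class II, CD4, C5aR, BST2, SIRP and CD11c. The study set C5aR+ LysoDC apart as a population of the subepithelial dome, so each pair of populations was compared. The sources used here do not give strain, age, sex or gates, and they name no treatment. For arrays 2 and 3 of C5aR- LysoDC the source field names another receptor, and the group was taken from the title. The labels do not tie arrays to animals, so p-values measure only how far these 9 samples spread, and that spread may be technical.

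Fc receptors bind the constant part of antibodies. Fcgr1, Fcgr3 and Fcgr4 pair with the Fcer1g chain, whose activation motif starts phagocytosis and oxidative burst, while Fcgr2b carries an inhibitory motif of its own and opposes them. Fcgrt, the neonatal Fc receptor, protects IgG from degradation in endosomes and carries it across cells with beta-2-microglobulin as its partner. Pigr, the polymeric immunoglobulin receptor, is best known in gut epithelium, where it takes up dimeric IgA and pentameric IgM from below and releases them into the lumen. Jchain, made by plasma cells, joins the antibody units of these polymers and is needed for their binding to Pigr.

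The promoters of the 4 IgG receptor genes are shown because their genes fell into different patterns across the arrays. In the RefSeq table of GRCm38.p6, Fcgr2b, Fcgr4 and Fcgr3 follow each other on chromosome 1 with 0 protein-coding genes between neighbours, and 7 lie between Fcgr3 and Fcer1g, whereas Fcgr1 lies on chromosome 3. All 8 genes had a promoter entry in that table. The window is the 150 bases before the annotated start, printed 5′ to 3′ on the gene's strand, with motif matches in capitals (for Fcgr3, which has 2 entries, the first was used).
Fcgr1 promoter, chr3:96293970-96294119, minus strand: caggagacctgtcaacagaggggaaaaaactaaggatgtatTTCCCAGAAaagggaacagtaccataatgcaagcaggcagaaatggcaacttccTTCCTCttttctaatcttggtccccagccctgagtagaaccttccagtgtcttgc
Fcgr2b promoter, chr1:170976072-170976221, minus strand: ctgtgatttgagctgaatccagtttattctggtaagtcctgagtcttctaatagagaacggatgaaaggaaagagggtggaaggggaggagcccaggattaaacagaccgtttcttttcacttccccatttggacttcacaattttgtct
Fcgr3 promoter, chr1:171059404-171059553, minus strand: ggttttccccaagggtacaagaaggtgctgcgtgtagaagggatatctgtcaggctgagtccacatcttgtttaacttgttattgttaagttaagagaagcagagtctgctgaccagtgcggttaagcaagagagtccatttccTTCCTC
Fcgr4 promoter, chr1:171018776-171018925, plus strand: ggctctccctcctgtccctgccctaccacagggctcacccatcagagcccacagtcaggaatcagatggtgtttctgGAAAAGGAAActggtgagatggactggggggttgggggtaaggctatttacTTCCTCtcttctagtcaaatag

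The 4 motifs of myeloid and interferon regulation or of start sites were searched on both strands, with no overlaps between matches of different motifs in these windows. The box bound by PU.1, the myeloid transcription factor, was searched as GAGGAA and is held by 14.5% of all 32851 promoter windows of the same length. It was found as its reverse complement TTCCTC in Fcgr1, Fcgr3 and Fcgr4, beginning at positions -55, -6 and -22 from the start. The gamma activated site, searched as TTCNNNGAA and held by 4.09% of windows, was found in Fcgr1 at position -109. The interferon response element core, found as GAAAAGGAAA and held by 1.59% of windows, lay in Fcgr4 at position -73. The TATA box TATAAA, held by 7.57% of windows, was found in none of the 8, and the windows of Fcgr2b, Fcer1g, Fcgrt, Pigr and Jchain held no match to any of the 4 motifs. A match describes the letters of the window and says nothing about binding in these cells.

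The arrays and populations were checked first. Log2 array medians ran from 3.39 to 3.65, and no array was left out. LysoMac array 3 correlated less with its own population (mean r = 0.954) than with the others (0.968), and the mean variance within LysoMac, 0.179, exceeded the 0.0958 and 0.0854 of C5aR+ and C5aR- LysoDC. The dendritic cell and macrophage marker genes named next were not targets of the sort antibodies, and they fitted the labels in part. The dendritic cell receptor gene Flt3 averaged 7.08 in C5aR- LysoDC but 4.39 in C5aR+ LysoDC and 3.62 in LysoMac. Csf1r, the macrophage growth factor receptor, averaged 10.90 in LysoMac, 10.87 in C5aR+ and 10.00 in C5aR- LysoDC. Other macrophage markers were lowest in LysoMac, such as Mrc1 (3.32, against 6.27 in C5aR+ and 5.69 in C5aR- LysoDC) and Siglec1 (3.17, against 5.30 and 4.23). Of the 16 macrophage markers measured, 8 lay above LysoMac in C5aR+ and 5 in C5aR- LysoDC. From LysoMac to C5aR- LysoDC, 10 of 16 measured conventional dendritic cell markers rose and 6 of 16 macrophage markers fell (limma, Benjamini-Hochberg adjusted). Leaving out 1 array at a time gave 7 to 11 of the first and 1 to 6 of the second, with 1 macrophage marker left without LysoMac array 1 or C5aR- LysoDC array 2 and 3 without C5aR- LysoDC array 1 or 3. Smallest in p were Itgae, Mgl2, Ccr7 and P2ry10 of the first list and Mertk, Cx3cr1, C1qc and Vcam1 of the second. Of these 8 calls, those of Cx3cr1, C1qc and Vcam1 were each lost for 3 of the 9 arrays and the others for 0. Of the natural killer, neutrophil, mast cell and T cell lists, with 10, 11, 11 and 10 genes measured, 1 gene each of the first 3 rose in that comparison (Tbx21, Mmp9 and Kit, the last also a dendritic cell marker) and 0 of the T cell list, none of which had an unadjusted p under 0.05. Leaving out 1 array at a time ended these calls for 6, 8 and 1 of the 9 arrays. In the other comparisons 0 genes of these 4 lists passed in limma, with 1 to 3 genes a list at an unadjusted p under 0.05. There 0 macrophage markers passed. Of the dendritic cell markers, Mgl2 was higher in C5aR+ LysoDC than in LysoMac. Itgae, Flt3 and Bcl11a were lower in C5aR+ than in C5aR- LysoDC. Leaving out 1 array at a time ended the call of Mgl2 for 2 of the 9 arrays, of Itgae for 0, of Flt3 for 7 and of Bcl11a for 8.

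Set against LysoMac, C5aR- LysoDC showed higher Fcgrt, Pigr and Jchain, while the IgG receptor genes and Fcer1g did not pass. These 3 of 8 genes passed the test upward and 0 passed downward, at a threshold of 0.05 on limma's p-values adjusted over all 33793 clusters. Over all clusters 1.13% passed upward and 0.405% downward in this comparison. All 3 arrays of C5aR- LysoDC lay above all 3 of LysoMac in 5 of the 8 genes, as did 7.28% of all clusters. In a test of any difference among the 3 populations (limma's moderated F test) the same 3 genes passed, with adjusted p-values of 0.032, 0.016 and 0.0159 for Fcgrt, Pigr and Jchain, where 0.755% of all clusters passed. The other 5 genes had adjusted p-values of 0.156 to 0.595 in that test. Its count of 3 became 2 without LysoMac array 3, C5aR+ LysoDC array 2 or C5aR- LysoDC array 3, 1 without LysoMac array 1 or 2 or C5aR- LysoDC array 1, and 0 without C5aR- LysoDC array 2.

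**Figure D1:**
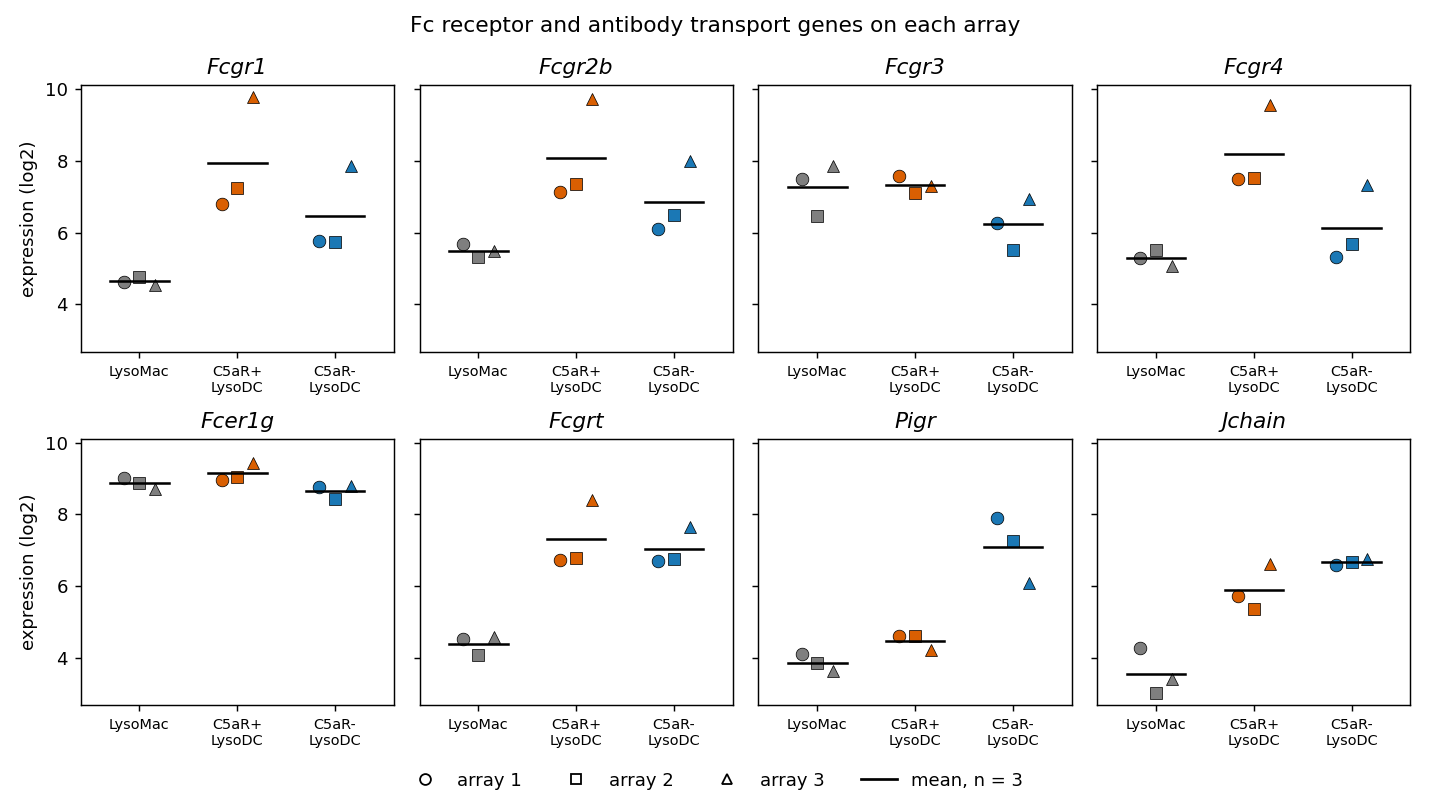
Log2 expression (vertical axis) of each of the 8 genes on every array, by population (horizontal axis), with array numbers as symbols and the mean of 3 arrays as a line. LysoMac points lie lowest for Fcgr1, Fcgr2b, Fcgrt, Pigr and Jchain. In Fcgr1, Fcgr2b and Fcgr4 the triangles of array 3 stand above arrays 1 and 2 in both LysoDC populations.

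Fcgr1 encodes CD64, the high-affinity IgG receptor and a widely used macrophage marker. Its log2 levels were 4.62, 4.75 and 4.55 on LysoMac arrays 1 to 3, then 6.79, 7.25 and 9.78 in C5aR+ LysoDC and 5.76, 5.74 and 7.87 in C5aR- LysoDC. The LysoMac arrays were thus the 3 lowest and did not overlap with either LysoDC population, while the LysoDC populations overlapped with each other. Means were 4.64 ± 0.10 (SD, n = 3) in LysoMac, 7.94 ± 1.61 in C5aR+ and 6.46 ± 1.22 in C5aR- LysoDC. C5aR+ LysoDC differed from LysoMac by 3.30 ± 0.78 (SE; 95% interval 1.53 to 5.06; limma, adjusted p = 0.456) and C5aR- LysoDC by 1.81 ± 0.78 (0.05 to 3.58; adjusted p = 0.368). Neither difference passed, and array 3 lay 2.76 above the mean of arrays 1 and 2 in C5aR+ and 2.12 above it in C5aR- LysoDC.

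Fcgr4 encodes an activating receptor for IgG2a and IgG2b. It stood at 5.28, 5.5 and 5.07 in LysoMac, at 7.50, 7.51 and 9.56 in C5aR+ LysoDC and at 5.33, 5.69 and 7.33 in C5aR- LysoDC. All C5aR+ arrays therefore lay above all arrays of both other populations, and C5aR- LysoDC overlapped with LysoMac. The difference of C5aR+ LysoDC from LysoMac was 2.91 ± 0.63 (1.49 to 4.32; limma, adjusted p = 0.338), and that from C5aR- LysoDC was 2.07 ± 0.63 (0.66 to 3.49; adjusted p = 0.52). C5aR- LysoDC and LysoMac differed by 0.83 ± 0.63, with an interval of -0.58 to 2.25 that holds 0.

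Fcgr3 encodes CD16, the low-affinity activating receptor, and showed another order. Its levels were 7.50, 6.47 and 7.85 in LysoMac, 7.58, 7.09 and 7.31 in C5aR+ LysoDC and 6.27, 5.52 and 6.93 in C5aR- LysoDC. The C5aR+ arrays lay above the C5aR- arrays without overlap, and LysoMac overlapped with both. C5aR+ LysoDC and LysoMac differed by 0.05 ± 0.41 (-0.87 to 0.98), a value whose sign turned after quantile normalization (-0.13) or cyclic loess (-0.12), with array weights (-0.16) and without LysoMac array 2 (-0.35) or C5aR+ LysoDC array 1 (-0.07). C5aR- LysoDC differed from LysoMac by -1.03 ± 0.41 (limma, adjusted p = 0.331) and from C5aR+ LysoDC, counted as C5aR+ minus C5aR-, by 1.09 ± 0.41 (adjusted p = 0.737).

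Fcgr2b, the inhibitory IgG receptor, had the profile of Fcgr1 rather than that of Fcgr3 (root mean square difference over the 9 centred arrays 0.36 and 1.43). It stood at 5.67, 5.31 and 5.49 in LysoMac, 7.13, 7.35 and 9.74 in C5aR+ LysoDC and 6.09, 6.48 and 8.0 in C5aR- LysoDC. LysoMac again lay lowest with no overlap, and the LysoDC populations overlapped. The differences from LysoMac were 2.58 ± 0.69 (1.03 to 4.14; limma, adjusted p = 0.616) in C5aR+ and 1.37 ± 0.69 (-0.19 to 2.92; adjusted p = 0.435) in C5aR- LysoDC. Fcgr2b and Fcgr3 are closely related in sequence, and whether their probes share signal was not tested.

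Fcer1g, the chain through which Fcgr1, Fcgr3 and Fcgr4 signal, varied little. Its levels were 9.03, 8.89 and 8.71 in LysoMac, 8.96, 9.04 and 9.44 in C5aR+ LysoDC and 8.78, 8.43 and 8.79 in C5aR- LysoDC. LysoMac overlapped with both LysoDC populations, and the C5aR+ arrays lay above the C5aR- arrays. Its difference was 0.27 ± 0.18 (-0.14 to 0.67) between C5aR+ LysoDC and LysoMac and -0.22 ± 0.18 (-0.62 to 0.19) between C5aR- LysoDC and LysoMac. Between the LysoDC populations it was 0.48 ± 0.18 (0.08 to 0.89; limma, adjusted p = 0.728). The interval of each of these differences lies within 1 log2 unit of 0, unlike those of Fcgr1, Fcgr2b and Fcgr4 between C5aR+ LysoDC and LysoMac, whose lower ends are 1.03 or more.

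**Figure D2:**
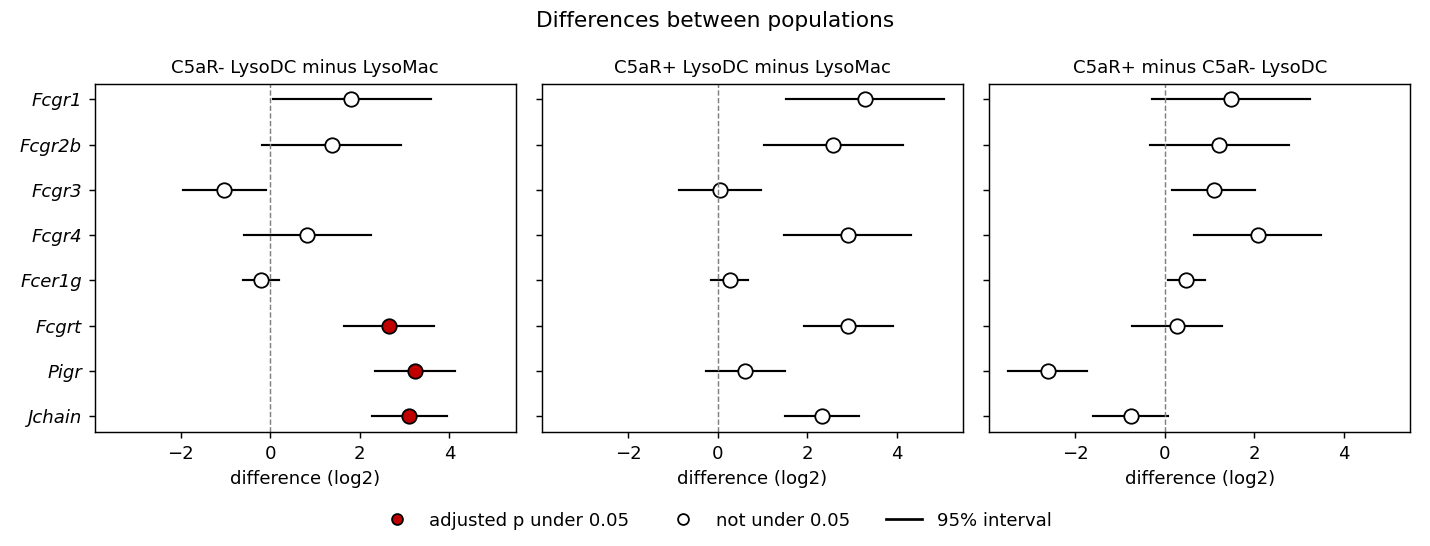
Differences between populations in log2 units (horizontal axis, C5aR- LysoDC minus LysoMac, C5aR+ LysoDC minus LysoMac and C5aR+ minus C5aR- LysoDC from left to right) for the 8 genes, with 95% intervals from limma as bars. Filled points, those of Fcgrt, Pigr and Jchain in the left panel (2.65, 3.23 and 3.10), had an adjusted p under 0.05.

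Fcgrt, the receptor that recycles IgG, was higher in C5aR- LysoDC than in LysoMac. Its levels were 4.53, 4.09 and 4.57 in LysoMac, 6.74, 6.79 and 8.40 in C5aR+ LysoDC and 6.69, 6.76 and 7.66 in C5aR- LysoDC. Every LysoDC array lay more than 2 log2 units above every LysoMac array, and the LysoDC populations overlapped. It rose by 2.65 ± 0.44 from LysoMac to C5aR- LysoDC (SE; 95% interval 1.65 to 3.65; limma, adjusted p = 0.0247), which is 6.26-fold. On LysoMac array 2 Fcgrt lay only 0.44 above the array median, so the change in RNA may be larger than this fold. The difference of C5aR+ LysoDC from LysoMac was 2.92 ± 0.44 (1.92 to 3.92), which did not pass (adjusted p = 0.11) but passed once replicate numbers entered the fit as a block (adjusted p = 0.0235). Its unadjusted p in limma, 9.52e-05, was below the 0.000199 of C5aR- LysoDC against LysoMac. P-values were adjusted within each comparison, with 17 clusters passing in the former and 518 in the latter, so Fcgrt was not particular to C5aR- LysoDC. The call in C5aR- LysoDC was lost without LysoMac array 1 (adjusted p = 0.0958) or 2 (0.0769), without C5aR- LysoDC array 1, 2 or 3 (0.0557, 0.0889 and 0.0781) and with 1 weight per population (0.0852). C5aR+ and C5aR- LysoDC differed in Fcgrt by 0.27 ± 0.44 (-0.73 to 1.27), a value of -0.27 without C5aR+ LysoDC array 3. B2m, the partner chain of Fcgrt, averaged 12.65 in LysoMac, 12.55 in C5aR+ and 12.41 in C5aR- LysoDC and passed in no comparison.

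Pigr was higher in C5aR- LysoDC than in LysoMac. It stood at 4.11, 3.85 and 3.62 in LysoMac, 4.6, 4.6 and 4.22 in C5aR+ LysoDC and 7.91, 7.27 and 6.08 in C5aR- LysoDC. The lowest C5aR- array thus lay above the highest array of either other population, and the C5aR+ arrays above those of LysoMac. Pigr rose by 3.23 ± 0.39 from LysoMac to C5aR- LysoDC (2.34 to 4.12; limma, adjusted p = 0.00672), a call that it kept in all 21 other settings tried. Its mean in LysoMac, 3.86, lay just above the array medians of 3.39 to 3.65, where a signal cannot be told from background by these values, so the change in RNA may be larger and no fold is given. C5aR+ minus C5aR- LysoDC was -2.62 ± 0.39 (-3.50 to -1.73; adjusted p = 0.0593), just short of the threshold. Leaving out 1 array at a time gave -3.12 to -2.2 for it, with adjusted p-values from 0.00664 (without C5aR- LysoDC array 3, the lowest of its population) to 0.274 (without C5aR- LysoDC array 2), and with the 2 compared populations alone the adjusted p was 0.204. C5aR+ LysoDC and LysoMac differed by 0.61 ± 0.39 (-0.27 to 1.5; adjusted p = 0.809).

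Jchain followed the order LysoMac, C5aR+ and C5aR- LysoDC. Its levels were 4.27, 3.01 and 3.41 in LysoMac, 5.73, 5.36 and 6.62 in C5aR+ LysoDC and 6.58, 6.67 and 6.75 in C5aR- LysoDC. Every LysoDC array lay above every LysoMac array, and the LysoDC populations overlapped through C5aR+ LysoDC array 3. Jchain rose by 3.10 ± 0.37 from LysoMac to C5aR- LysoDC (2.27 to 3.94; limma, adjusted p = 0.00596), a call kept in all 21 other settings. The LysoMac mean of 3.56 lay within the range of the array medians, so no fold is given here either. C5aR+ LysoDC differed from LysoMac by 2.34 ± 0.37 (1.5 to 3.17; adjusted p = 0.122) and from C5aR- LysoDC by -0.76 ± 0.37 (-1.60 to 0.07; adjusted p = 0.972), so neither passed. The first of these 2 differences had an unadjusted p of 0.000129 in limma, rank 34 of all clusters in its comparison.

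Between C5aR+ LysoDC and LysoMac all 8 differences were above 0, with a median of 2.46 against -0.035 over all clusters. The groups did not overlap in 6 of the 8 genes (Fcgr1, Fcgr2b, Fcgr4, Fcgrt, Pigr and Jchain), with C5aR+ LysoDC higher, as in 4.03% of all clusters. Nevertheless 0 of 8 passed limma's test, where 0.0503% of clusters passed upward and 0% downward, while 5 of 8 had an unadjusted p under 0.05, against 6.19% of clusters. Same-numbered arrays of these populations deviated together. With replicate numbers as a block over all 9 arrays, 1 of 8, Fcgrt, passed (limma, adjusted p = 0.0235). That fit also blocked C5aR- LysoDC, whose numbers were not taken as pairs. Within each of the 3 numbers C5aR+ LysoDC lay above LysoMac for Fcgr1, Fcgr2b, Fcgr4, Fcgrt, Pigr and Jchain. Between C5aR+ and C5aR- LysoDC 0 of 8 passed as well (1, Pigr, without C5aR- LysoDC array 3), with 0.00592% of clusters passing upward and 0.0947% downward, and 4 of 8 (Fcgr3, Fcgr4, Fcer1g and Pigr) had an unadjusted p under 0.05, against 5.46%. Those 4 genes were also the ones without overlap, the first 3 higher in C5aR+ LysoDC (5.12% of clusters) and Pigr lower (5.13%). In the comparison of C5aR- LysoDC with LysoMac 5 of 8 had an unadjusted p under 0.05, against 13.2% of clusters, and the median of the 8 differences was 1.59, against -0.059 over all clusters. The 3 comparisons share arrays, so these counts are not independent of each other.

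Fcgr1, Fcgr2b, Fcgr4 and Fcgrt were set apart by array 3 of both LysoDC populations. In C5aR+ LysoDC array 3 exceeded the mean of arrays 1 and 2 by 2.76 in Fcgr1, 2.5 in Fcgr2b, 2.06 in Fcgr4 and 1.64 in Fcgrt, while 2.25% of all clusters were 1 log2 unit or more higher on that array. In C5aR- LysoDC the excess was 2.12, 1.71, 1.82 and 0.93 in the same genes, while 0.53% of clusters were 1 unit or more higher. In 1 LysoDC population only, Fcgr3 had an excess of 1.04 (C5aR-, against -0.03 in C5aR+) and Jchain of 1.08 (C5aR+, against 0.12 in C5aR-). Pigr went the other way in C5aR- LysoDC, with an array 3 excess of -1.51. In LysoMac the array 3 excess was -0.13, 0.00, -0.32 and 0.26 for Fcgr1, Fcgr2b, Fcgr4 and Fcgrt, while 4.83% of clusters were 1 unit or more higher. Without the third arrays of both LysoDC populations the differences between C5aR+ LysoDC and LysoMac were 2.38 in Fcgr1, 2.22 in Fcgr4, 2.37 in Fcgrt and 1.75 in Fcgr2b. The first 3 of these then had an adjusted p under 0.05 in limma. Since those arrays were left out because these same genes were high on them, the smaller spread follows from the choice, and the calls are given as a description that supports nothing.

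Markers of monocytes and macrophages were read beside array 3. The mean of the 10 measured monocyte markers ranged from 4.45 to 4.69 over the LysoMac arrays, from 4.81 to 6.01 in C5aR+ and from 5.16 to 5.48 in C5aR- LysoDC, each time highest on array 3 of the LysoDC populations. Array 3 was the highest array for 9 of the 10 in C5aR+ LysoDC but for 4 of the 10 in C5aR- LysoDC, where Spn stood at 6.22, 6.15 and 5.36. The defining marker Ly6c2 stood at 3.41, 2.90 and 7.80 in C5aR+ LysoDC and at 5.24, 3.80 and 6.47 in C5aR- LysoDC, against 3.08, 3.34 and 2.06 in LysoMac. Its highest arrays were thus array 3 of both LysoDC populations, as for Fcgr1, Fcgr2b and Fcgrt. The gene of the monocyte chemokine receptor Ccr2 stood at 6.75, 6.69 and 7.88 in C5aR+ LysoDC and at 6.59, 6.61 and 6.97 in C5aR- LysoDC, again highest on array 3. Of the 10 markers Nr4a1 and Spn rose from LysoMac to C5aR- LysoDC, calls that ended when 4 and 8 of the 9 arrays were left out in turn, and in the other comparisons 0 passed in limma and 2 had an unadjusted p under 0.05. The mean of the 16 measured macrophage markers was also highest on array 3, with 7.78, 7.87 and 8.27 on the C5aR+ arrays and 7.08, 7.23 and 7.61 on the C5aR- arrays, against 7.53, 7.43 and 7.82 in LysoMac. Array 3 was the highest for 7 of these 16 in C5aR+ and for 10 in C5aR- LysoDC. Adgre1, the gene of a surface receptor widely used to mark mouse macrophages, stood at 6.80, 7.11 and 8.97 in C5aR+ LysoDC, at 5.66, 6.46 and 7.29 in C5aR- LysoDC and at 5.33, 5.52 and 6.76 in LysoMac. Mertk and Vcam1 were instead lowest on array 3 of C5aR+ LysoDC, at 7.69, 7.28 and 6.54 and at 7.38, 7.56 and 6.95. The median array 3 excess of the 16 markers was 0.15 in C5aR+ LysoDC, 0.39 in C5aR- LysoDC and 0.26 in LysoMac. High values on array 3 of C5aR+ LysoDC were not particular to these 2 lists. That array was also the highest of its population for 9 of 13 B cell markers and 10 of 16 plasma cell markers. The same held for 16 of 22 genes of activating Fc receptor signalling, but for only 3 of 18 epithelial and M cell markers and 2 of 10 T cell markers. The part of monocytes or macrophages in the levels of the Fc receptor genes was not tested. In such sorted bulk samples fewer cells of a type and less RNA per cell cannot be told apart.

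**Figure D3:**
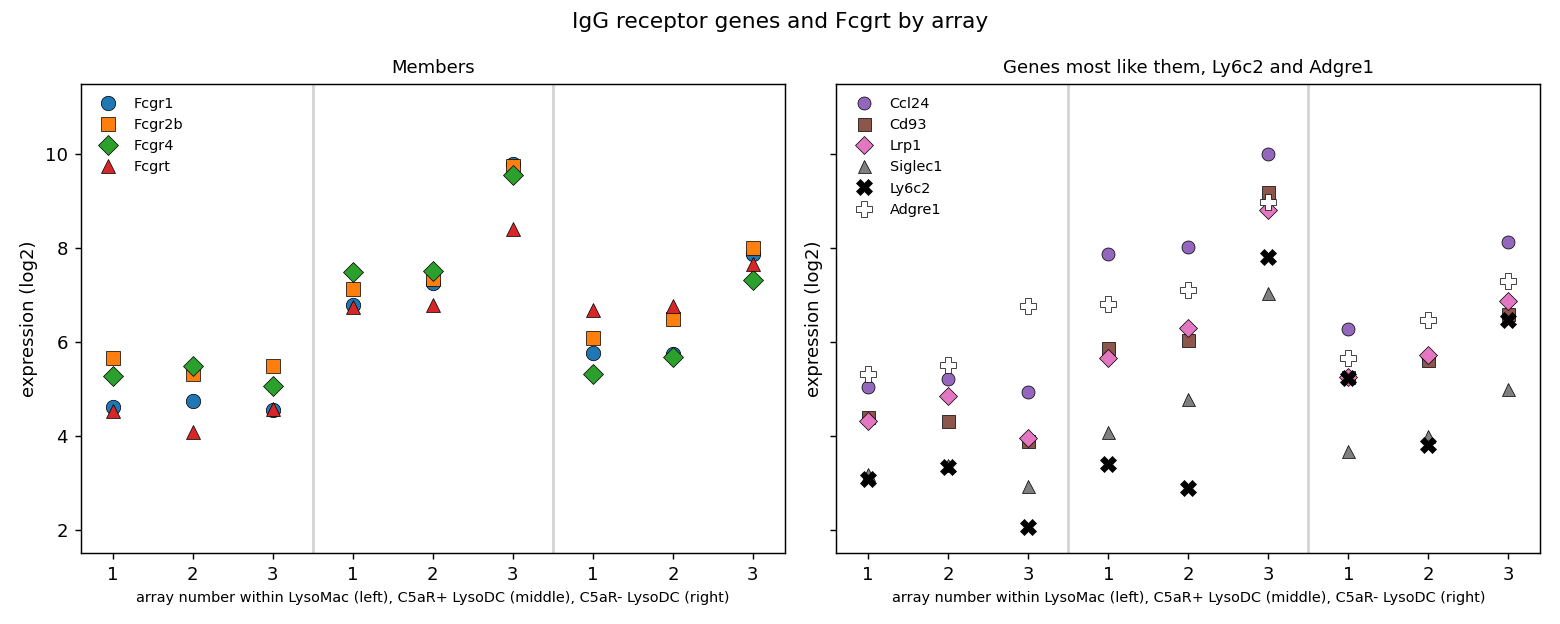
Log2 expression (vertical axis) on each of the 9 arrays (horizontal axis, array numbers within each population) of Fcgr1, Fcgr2b, Fcgr4 and Fcgrt on the left and of 4 genes with similar profiles and of the monocyte marker Ly6c2 and the macrophage marker Adgre1 on the right. Array 3 of C5aR+ LysoDC is the highest point of every gene shown, for example 9.78 for Fcgr1 and 7.80 for Ly6c2.

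The genes whose profiles over the 9 arrays came closest to those of each member were sought among 11972 genes above every array median, by the root mean square difference of values centred on each gene's mean. Closest to Fcgr1 were the chemokine gene Ccl24 (0.31 log2 units), Cd93 (0.38) and the scavenger and clearance receptor gene Lrp1 (0.43), and closest to Fcgr4 were Ccl24 (0.43), the macrophage lectin gene Siglec1 (0.51) and the chemokine gene Pf4 (0.52). Closest to Fcgr2b were Cd93 (0.31), Siglec1 (0.31) and Lrp1 (0.33). Ccl24 showed the same high values on array 3, with 7.88, 8.03 and 10.00 on the C5aR+ arrays, 6.28, 5.68 and 8.12 on the C5aR- arrays and 5.04, 5.21 and 4.93 in LysoMac.

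Fcgr3, Fcgrt, Pigr and Jchain each had other neighbours. Those of Fcgr3 were Gas7 (0.18), Tmem86a (0.20) and Plk3 (0.25), and those of Fcgrt were Plxdc2 (0.42), the mannose receptor gene Mrc1 (0.43) and Gm5150 (0.47). Pigr was nearest to the carbonic anhydrase gene Car2 (0.23), Gcsam (0.32) and Cpe (0.37), and Jchain to Diaph2 (0.45), the MHC class II gene H2-Eb1 (0.47) and St3gal1 (0.47). Car2 shared the high C5aR- arrays and their spread, with 7.87, 7.61 and 6.17 there, 4.42, 4.59 and 3.91 in C5aR+ LysoDC and 3.74, 3.39 and 3.6 in LysoMac. Among the members themselves Fcgr1 and Fcgr2b differed least (0.36), followed by Fcgr2b and Fcgr4 (0.41), Fcgr1 and Fcgr4 (0.48) and Fcgrt and Jchain (0.56), whereas Fcgr1 differed by 1.72 from Fcgr3 and by 2.15 from Pigr. Fcer1g, whose population means spanned 0.48, was not matched.

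Markers of the cells best known for Pigr and Jchain were read beside them. Of 18 epithelial and M cell markers, all measured, 4 rose from LysoMac to C5aR- LysoDC along with Pigr: Gp2, a bacteria-binding receptor of M cells, by 3.86, Pglyrp1 by 2.42, Cdh1 by 1.75 and Epcam by 1.54. The other 14 did not pass, 0 passed downward, and 7 of the 18 had an unadjusted p under 0.05. Only 10 of the 18 differences were above 0, with a median of 0.04, against -0.059 over all clusters. Going the other way without passing, Vil1 averaged 3.01 in LysoMac and 2.52 in C5aR- LysoDC, and Cldn3 4.64 and 4.30. Gp2 stood at 6.93, 8.01 and 7.31 in C5aR- LysoDC, against 3.62, 4.68 and 4.10 in C5aR+ LysoDC and 3.75, 3.56 and 3.34 in LysoMac, so C5aR- LysoDC did not overlap with either population. From C5aR- to C5aR+ LysoDC, Gp2, Pglyrp1 and Cdh1 fell, with differences of -3.28, -2.54 and -2.11, and between C5aR+ LysoDC and LysoMac 0 of 18 passed in limma, with 1 at an unadjusted p under 0.05. Against LysoMac, Gp2 and Pglyrp1 kept their calls without any 1 of the 9 arrays, while Epcam, which averaged 3.21 in LysoMac, below every array median, lost its call without LysoMac array 1 (adjusted p = 0.054). Cdh1 lost it without LysoMac array 1 or C5aR- LysoDC array 1 or 2 (0.0667, 0.0564 and 0.0979), with the 2 compared populations alone (0.0805) and as the mean of its clusters, where the rise was 0.75. Between the LysoDC populations, leaving out 1 array at a time ended the call of Gp2 for 3 of the 9 arrays, of Pglyrp1 for 5 and of Cdh1 for 7. The mean of the 18 markers ranged from 4.14 to 4.42 in C5aR- LysoDC, from 3.58 to 3.81 in C5aR+ LysoDC and from 3.48 to 3.88 in LysoMac. In C5aR- LysoDC 6 of the 18 lay below every array median. The keratin gene Krt8, among the 2 brightest of the list, stood at 6.01, 5.43 and 5.30 in C5aR- LysoDC, at 4.91, 4.68 and 4.99 in C5aR+ LysoDC and at 5.02, 5.31 and 4.62 in LysoMac, and did not pass (adjusted p = 0.319 against LysoMac). Within C5aR- LysoDC array 1 was highest for Pigr and for 9 of the 18 markers, Krt8 and Cdh1 (6.46, 6.07 and 5.52) among them, array 2 for 6, Gp2 among them, and array 3 for 3. The part of epithelial or M cells in the Pigr signal was not tested.

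Jchain is known from plasma cells, of which 16 of 23 listed markers were measured. From LysoMac to C5aR- LysoDC Irf4, Slamf7 and Pou2af1 rose, by 1.95, 2.36 and 0.62, and Irf4, a transcription factor that dendritic cells also use, was on the dendritic cell list too. Leaving out 1 array at a time ended the call of Irf4 for 7 of 9 arrays, of Slamf7 for 6 and of Pou2af1 for 8, with adjusted p-values of up to 0.17. In the other comparisons 0 of 16 passed in limma, with 4 at an unadjusted p under 0.05 between C5aR+ LysoDC and LysoMac and 2 between the LysoDC populations. The mean of the 16 ranged from 6.04 to 6.45 in LysoMac, from 6.47 to 6.81 in C5aR+ and from 6.54 to 6.77 in C5aR- LysoDC. Ighm, the heavy chain gene of IgM and the brightest of the list, averaged 10.51, 10.95 and 11.10 in LysoMac, C5aR+ and C5aR- LysoDC and passed in no comparison. A strong Ighm signal was thus present in all 3 populations. Ighg3, the other heavy chain gene of the list that was measured, averaged 4.58, 3.87 and 3.62 in the same order. Tnfrsf17, the plasma cell receptor BCMA, averaged 3.29, 3.31 and 3.16 in LysoMac, C5aR+ and C5aR- LysoDC, below the median of every array in each. Mzb1, a chaperone of antibody assembly, stood at 4.33, 4.12 and 3.99 in LysoMac, at 4.87, 4.44 and 5.64 in C5aR+ LysoDC and at 5.14, 4.91 and 5.71 in C5aR- LysoDC. LysoMac thus lay lowest without overlap, but Mzb1 did not pass. Of the 16 differences from LysoMac to C5aR- LysoDC 11 were above 0, with a median of 0.23. Going the other way, Sdc1 averaged 6.22 in LysoMac, 6.17 in C5aR+ and 5.40 in C5aR- LysoDC, and Ell2 10.00, 9.54 and 9.50.

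Of the B cell markers, 2 passed upward from LysoMac to C5aR- LysoDC, while most of the list lay above LysoMac in both LysoDC populations. The mean of 13 measured genes ranged from 4.21 to 4.42 in LysoMac, from 4.74 to 5.38 in C5aR+ and from 5.03 to 5.10 in C5aR- LysoDC. Cr2 and Blk, a complement receptor and a kinase of B cells, rose by 1.64 and 1.82 from LysoMac to C5aR- LysoDC, although Blk lost its call without C5aR- LysoDC array 2 (limma, adjusted p = 0.0511). In LysoMac Cr2 averaged 3.10, below every array median, and Blk 3.61, within their range, so the changes in RNA may be larger. Cd79b and Cd22, the 2 brightest, were lower in C5aR- LysoDC than in LysoMac (6.25 against 6.96, and 5.13 against 5.57) and did not pass. Of the 13 differences in that comparison 11 were above 0, with a median of 0.69 and 7 at an unadjusted p under 0.05 (13.2% of all clusters). Between C5aR+ LysoDC and LysoMac 12 of 13 were above 0, with a median of 0.79. In the other comparisons 0 of 13 passed in limma. There 7 (C5aR+ LysoDC against LysoMac) and 4 (between the LysoDC populations) had an unadjusted p under 0.05, against 6.19% and 5.46% of all clusters. The part of plasma cells or B cells in the Jchain signal was not tested.

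**Figure D4:**
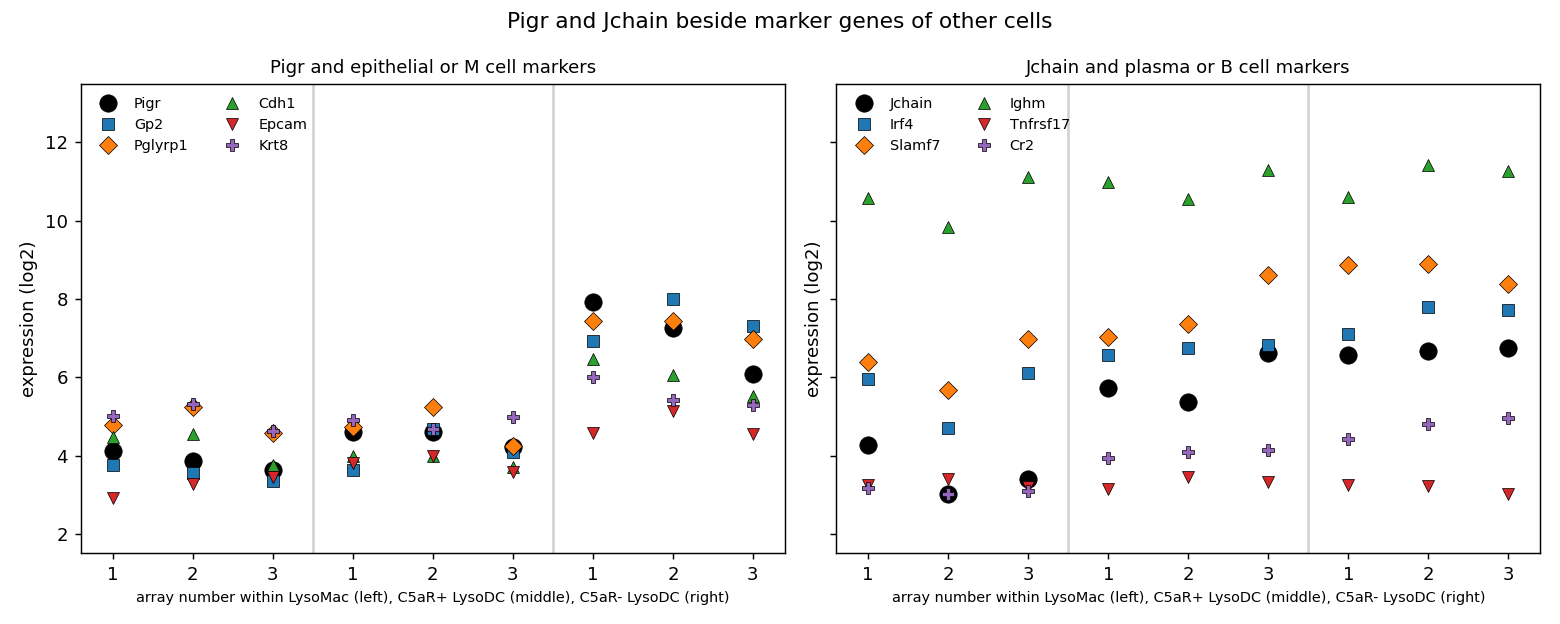
Log2 expression (vertical axis) on each of the 9 arrays (horizontal axis, array numbers within each population) of Pigr with 5 epithelial or M cell markers on the left and of Jchain with 5 plasma or B cell markers on the right. Gp2, Pglyrp1 and Cdh1 share the high C5aR- LysoDC arrays of Pigr, while Krt8 lies between 4.62 and 6.01 on all 9 arrays. Ighm lies at 9.83 or more on every array, Tnfrsf17 reaches at most 3.45, and Jchain reaches 6.75.

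The other Fc receptor genes were read beside the 8. Of 16 measured genes of 18 listed, Fcrl1, a receptor-like gene of B cells, rose from LysoMac to C5aR- LysoDC and 15 did not pass. Its levels were 4.35, 4.65 and 3.82 in LysoMac, 5.60, 5.54 and 6.55 in C5aR+ LysoDC and 6.31, 5.86 and 5.97 in C5aR- LysoDC, a rise of 1.77 ± 0.31 (limma, adjusted p = 0.0279). The call of Fcrl1 was lost with 1 weight per population (adjusted p = 0.0692) and without LysoMac array 1 (0.103) or C5aR- LysoDC array 1, 2 or 3 (0.0904, 0.1 and 0.0788). Fcamr, a receptor for IgA and IgM, stood at 3.32, 3.31 and 3.74 in LysoMac, 4.15, 4.61 and 5.5 in C5aR+ LysoDC and 4.64, 5.92 and 6.14 in C5aR- LysoDC. All its LysoDC arrays lay above those of LysoMac, but the difference of 2.11 ± 0.43 in C5aR- LysoDC did not pass (adjusted p = 0.0531). The genes of the mast cell IgE receptor, Fcer1a and Ms4a2, lay below every array median in all populations, at 1.69 and 2.29 in LysoMac. In the other comparisons 0 of 16 genes passed in limma, with 3 and 1 at an unadjusted p under 0.05, and the inhibitory receptor gene Lilrb4a, among the brightest of the list with B2m, averaged 11.12 in LysoMac, 11.20 in C5aR+ and 10.84 in C5aR- LysoDC.

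The signalling genes downstream of the receptors passed the test once. Of 22 measured genes of activating signalling, the kinase gene Src fell from LysoMac to C5aR- LysoDC by -0.77 ± 0.14 (limma, adjusted p = 0.0305) and 21 did not pass. Src stood at 5.81, 5.46 and 5.77 in LysoMac and at 4.99, 4.86 and 4.88 in C5aR- LysoDC, without overlap. Its call was lost in 11 of the 21 other settings: without LysoMac array 1 (adjusted p = 0.121), without C5aR+ LysoDC array 1 or 2 (0.058 and 0.0654), without any 1 of the C5aR- LysoDC arrays (0.0693, 0.135 and 0.0982), without the third arrays of both LysoDC populations (0.154), with each array centred on its median (0.0855), with an intensity trend and robust variances (0.0665), with 1 weight per population (0.0504) and with the 2 compared populations alone (0.109). The adaptor gene Tyrobp averaged 11.60 in LysoMac, 11.64 in C5aR+ and 11.17 in C5aR- LysoDC, and Cyba, a subunit of the phagocyte oxidase, averaged 11.59, 11.70 and 11.51. The GTPase gene Rac2 averaged 8.59 in LysoMac, 9.38 in C5aR+ and 10.96 in C5aR- LysoDC, but its difference of 2.37 ± 0.54 in C5aR- LysoDC did not pass (adjusted p = 0.0794). In the other comparisons 0 of 22 passed in limma, with 2 and 3 at an unadjusted p under 0.05.

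Of the 11 genes of inhibitory signalling, all measured, 0 passed in any comparison in limma, with 3, 0 and 1 at an unadjusted p under 0.05. Cbl, a ubiquitin ligase, averaged 9.01 in LysoMac, 9.51 in C5aR+ and 9.25 in C5aR- LysoDC, and the phosphatase gene Ptpn6 averaged 8.03, 8.13 and 8.46. The phosphatase gene Inpp5d, through which Fcgr2b acts, averaged 7.68, 8.06 and 8.04. Median differences from LysoMac to C5aR- LysoDC were -0.03 for the other Fc receptors, 0.29 for activating and 0.24 for inhibitory signalling, against -0.059 over all clusters. From LysoMac to C5aR+ LysoDC the same medians were 0.09, 0.19 and 0.15, against 2.46 for the 8 genes described.

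**Figure D5:**
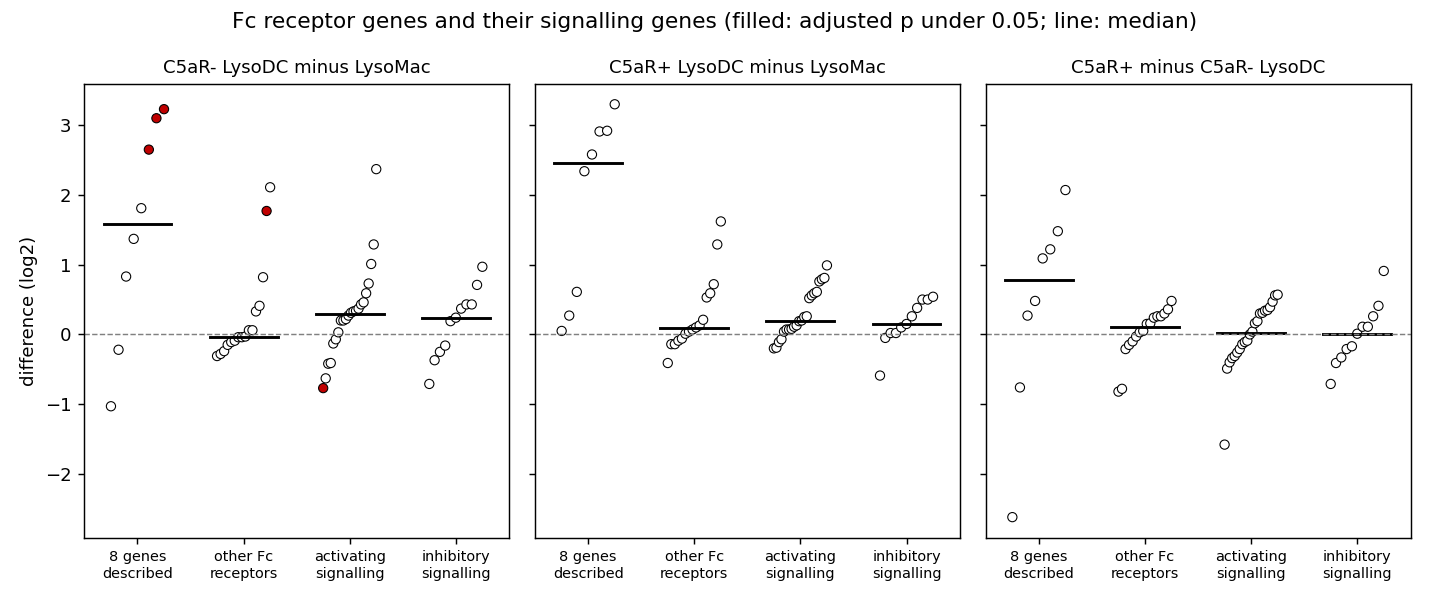
Differences between populations in log2 units (vertical axis) of the 8 genes described, 16 other Fc receptor genes, 22 activating and 11 inhibitory signalling genes (horizontal axis), 1 panel per comparison, with a line at each list's median. Between C5aR+ LysoDC and LysoMac the medians are 2.46, 0.09, 0.19 and 0.15.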

How the data were processed

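Per the labels' protocols, total RNA of 9 sorted samples was amplified from small amounts and hybridised to Affymetrix whole-transcript mouse arrays. The deposited values are log2 expression, 1 per transcript cluster and array, made with RMA and Affymetrix Power Tools per the submitters' processing notes. The sources used here give no versions, settings or build. RMA values compress differences of dim genes, so low signals are bounds.

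All 33793 clusters were fitted in R 4.3.3 with limma 3.58.1, using 1 mean for each population, moderated variances (9.11 degrees of freedom in all) and two-sided tests. P-values were adjusted by Benjamini-Hochberg over all clusters, with 0.05 as the threshold, and intervals are 95% intervals of the fit. By the platform annotation 23521 clusters have 1 symbol, 1814 have several and 8458 have none, and only the first kind was named, by the cluster of highest mean. Precision is limited by the number of arrays.

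The 8 genes and the 13 gene lists (201 genes, 180 measured) were chosen with earlier results of these data known. Named are the 8 genes and the 3 genes most like each whose population means span 1 log2 unit or more. Of each list, up to 4 genes that passed in a comparison are named. Where none passed, some genes among the 2 brightest are named, though not for every list. Outside this rule Csf1r, Ly6c2, Ccr2, Adgre1, Tnfrsf17, Mzb1, Sdc1, Ighg3, Vil1, Cldn3, Fcamr, Fcer1a, Ms4a2, Rac2 and Inpp5d were named once values were seen. Antigen receptor segments were left out. Groups and replicate numbers come from the titles. Over all clusters, arrays of C5aR+ LysoDC and LysoMac with 1 number deviated together from their population means (r = 0.16, 0.26 and 0.41), so the blocked value is given with each call that it changed there. For C5aR- LysoDC and LysoMac these correlations were 0.17, -0.11 and 0.13, and for the LysoDC populations 0.23, -0.03 and 0.2. In both at least 1 was below 0, and the numbers were not taken as pairs. Their other values were of similar size to the 0.16 above, so the correlations do not settle whether a number marks a pair. The block was nevertheless fitted over all 9 arrays. The alternatives were quantile normalization, cyclic loess, median centring, the replicate block, a filter on dim clusters, clusters with 1 symbol, an intensity trend with robust variances, array weights, 1 weight per population, the 2 compared populations alone, the mean of a gene's clusters and leaving out each array. Leaving out the third arrays of both LysoDC populations was added after seeing the data. Promoter sequences and gene order come from RefSeq tables of GRCm38.p6, and no protein sequence was used here.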

Additional observations from a re-analysis of the deposited data

How the results depend on the processing

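The 24 differences of the 8 genes were recomputed under 21 alternatives, 504 values in all, of which 475 kept their direction and their side of the threshold, 17 newly passed, 6 lost their call and 6 turned their sign. All 6 lost calls were those of Fcgrt between C5aR- LysoDC and LysoMac. The turned signs were those of Fcgr3 between C5aR+ LysoDC and LysoMac after quantile normalization (-0.13), after cyclic loess (-0.12), with array weights (-0.16) and without LysoMac array 2 or C5aR+ LysoDC array 1 (-0.35 and -0.07, within a range of -0.35 to 0.34 over the arrays left out), and that of Fcgrt between the LysoDC populations without C5aR+ LysoDC array 3 (-0.27, within a range of -0.27 to 0.58).

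With the replicate number as a block (replicate block), 1 gene passed between C5aR+ LysoDC and LysoMac in place of 0 (Fcgrt) and 1 between the LysoDC populations in place of 0 (Pigr, -2.62, adjusted p = 0.023). The block changed no other call of the 8 genes. It moved the calls over all clusters between the LysoDC populations from 34 to 59, from 518 to 709 between C5aR- LysoDC and LysoMac and from 17 to 20 between C5aR+ LysoDC and LysoMac. Between the LysoDC populations Pigr was also the 1 gene that passed after cyclic loess, with the filter on dim clusters, with clusters of 1 symbol only, with array weights, with 1 weight per population and without the third arrays of both LysoDC populations. The filter and the restriction to 1 symbol test fewer clusters (16988 and 23521). Array weights gave 4 genes between C5aR+ LysoDC and LysoMac (Fcgr1, Fcgr4, Fcgrt and Jchain) and 7 in the F test, all but Fcer1g, but they also called 6682 clusters between C5aR- LysoDC and LysoMac in place of 518 and 1366 between C5aR+ LysoDC and LysoMac in place of 17. The cause was not tested. Without the third arrays of both LysoDC populations, which were chosen by the levels of these genes, 3 genes passed between C5aR+ LysoDC and LysoMac and 5 in the F test.

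Leaving out 1 array at a time gave between 0 and 3 genes in the F test and 0 or 1 between the LysoDC populations, and 2 or 3 between C5aR- LysoDC and LysoMac. In the F test 1 gene was left without LysoMac array 1 (Jchain), LysoMac array 2 or C5aR- LysoDC array 1 (Pigr), and 0 without C5aR- LysoDC array 2. Signals near the array medians, as those of Pigr and Jchain in LysoMac, limit what can be said of levels below them.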
